A study of Mus musculus with 4 samples.

Results

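The 35 genes described here encode the enzymes of cholesterol and fatty acid synthesis and the proteins that switch these enzymes on and off with the sterol content of the cell. The genes were chosen by function with earlier results of these data in view, and their sites were selected on the authors' calls, that is on the level, the covering reads and the p-values. These sites are the rows of the deposited table in which 1 of the comma-separated gene labels is a member. Of the 506952 positions in the table, 1707 belong to these genes, and 24 of the 35 genes have at least 1. The cells are cultured mouse acute myeloid leukemia cells that carry NRAS and AE9a, a truncated AML1-ETO fusion protein, with 2 libraries labelled WT and 2 labelled Tet2 KO, the latter without the 5-methylcytosine dioxygenase Tet2. All 4 libraries come from bisulfite-treated poly(A) RNA, and the medium of all cells held IL-6 and IL-3 (10 ng/ml each) and SCF (50 ng/ml), with puromycin (2 µg/ml) and G418 (1 mg/ml) for selection. The labels say neither how Tet2 was removed nor whether replicates were separate cultures. The table holds values merged over the KO libraries and 0 columns of WT values, so no KO and WT values are compared below, and a position is called a listed site in the authors' sense.

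In animal cells, the sterol regulatory element-binding proteins are made as inactive precursors in the membrane of the endoplasmic reticulum. Scap escorts them to the Golgi, where the site-1 and site-2 proteases release the transcription factor, and the Insig proteins hold Scap back when sterols are plentiful. Released SREBP-2 mainly raises the genes from acetyl-CoA through mevalonate and squalene to cholesterol, and SREBP-1c mainly those of fatty acid synthesis, elongation and desaturation. Dividing cells use both pathways to make membranes. Bisulfite turns unmethylated cytosine into uracil, which is read as T, so the authors' level is the fraction of reads used that still show C.

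The first question is whether the listed positions lie on a cytosine. RefSeq sequence windows around annotated gene starts and miRNA hairpins (GRCm38.p6, the build that mm10 names) covered 14 of the 1707 member sites, in Pmvk, Elovl1 and Scd2. On the transcribed plus strand, 1 of these 14 positions was a C, 12 were a G and 1 was an A. The stretches below are shown because they let a reader see which bases were listed. Each is written 5′ to 3′ on the plus strand, with listed positions in capitals.
Pmvk, chr3:89459427-89459456: tccGgGaaggacttcgtgaccgagaGgctg
Elovl1, chr4:118429712-118429741: aGGaGtctcaaaGagccaggctcctgGAGt
Elovl1, chr4:118429554-118429583: ctggggctcacttgGctttctcaattctgg
Elovl1, chr4:118429451-118429480: tgCtgggtgtggattttttagcagttctgg
Scd2, mmu-miR-5114, chr19:44303171-44303192: acuggagacggaaGcugcaaga
The listed position of the Pmvk stretch at 89459430 had 40 unconverted reads of 57 used, a level of 0.702. The Elovl1 site at 118429568 was unconverted in 13 of 13 reads although it lies on a G, and the site on a C, at 118429453, had 3 of 10 reads. In Scd2, the listed base is position 14 of mature miR-5114, counted from its 5′ end, with a level of 0.41 from 25 of 61 reads. The miR-5114 hairpin lies inside the Scd2 span, and these reads cannot be divided between them.

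Positions on bases other than C were also listed elsewhere in the table. The 14 member sites lie in 3 genes, with 7 in a single Elovl1 stretch of 30 nt, so their share cannot be compared with the rest. Windows covered 6037 plus-strand listed positions, of which 3138 (52.0%, exact 95% interval 50.7 to 53.2) were a C, 1811 a G and 1088 an A. None was a T (upper limit of the exact interval 0.0611%), whereas 18.3% of the bases directly beside them were. Of 146 minus-strand listed positions in the windows, 132 (90.4%) were a C on the minus strand. Median levels at these plus-strand positions were 0.7 for C, 0.667 for G and 0.6 for A. All 3 were above the median of 0.529 over all sites in other plus-strand genes, so the windows differ in level from the rest. At the 2899 plus-strand positions on a G or A (48.0% of those with known sequence), the reads counted as unconverted cytosine lie on another base, and a level there is not a cytosine methylation level. The caller's rules were not stated by the labels or the file header. The base under the other 1693 member sites was not analysed here.

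The share of covering reads that entered the level separated these positions. At windowed plus-strand sites where under 70% of the covering reads were used, 1957 of 1957 positions were a C (exact interval 99.8 to 100%). Where 70% or more were used, 1181 of 4080 were a C (28.9%, interval 27.6 to 30.4). All 14 windowed member sites had 70% or more of their covering reads used, so none of the windowed members belongs to the first class. At 40 or more covering reads the division was nearly complete, with a C at 112 of 112 positions below 70% and at 2 of 130 positions (1.54%, interval 0.187 to 5.45) at or above it. Sites with 20 or more reads used lay on a C in 59 of 612 cases (9.64%), so the most deeply used sites are mostly on other bases in these windows. Within the class at 70% or more, the share of C was uneven. It was 94.2% (564 of 599) at 70 to 80% read use and 14.7% (330 of 2246) at 80 to 90%. At 90% or more it was 23.2% (287 of 1235). Of the plus-strand member sites, 133 lay at 70 to 80%, a range in which most windowed positions were a C. The 70% boundary was chosen after the data were examined, and the windows lie at gene starts and hairpins only. Among the plus-strand member sites, 622 of 1692 (36.8%, interval 34.5 to 39.1) were below 70%, against 28.6% of the sites in other plus-strand genes. Single calls had 10 or more reads used, so those with few covering reads cannot fall below 70%. The class thus depends in part on depth. In the members, median covering reads were 25 below 70% and 15 at or above it. Over all plus-strand sites the median was 19 in members and 18 in other genes. Sites under 70% are called sites with low read use below, and values are given for them beside those for all sites.

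**Figure D1:**
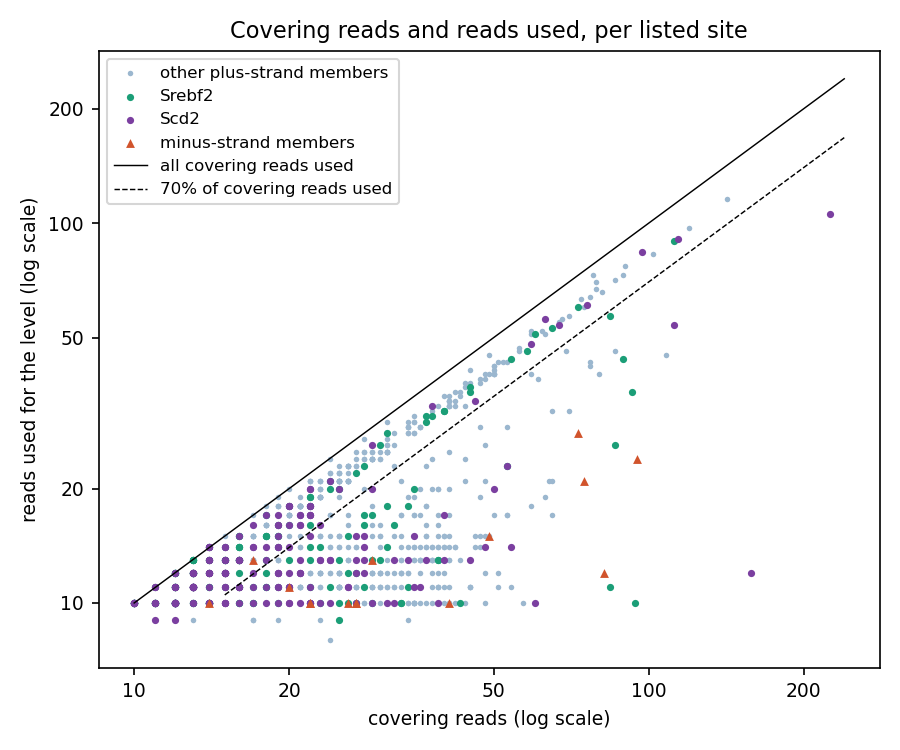
Reads used for the level against covering reads for each listed site of the member genes, both on log scales, with Srebf2, Scd2 and the minus-strand members marked. Above 40 covering reads, most points fall into a band just under the line of full use or lie below the dashed line at 70%.

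Members on the plus strand of the genome all had sites and those on the minus strand had few. All 17 plus-strand members had a site, from 11 in Idi1 to 212 in Scd2, against 51.3% of 8730 plus-strand protein-coding genes. Of the 17 minus-strand members, 7 had a site, with 4 at most, against 18.5% of 8762 minus-strand genes. Of all listed positions, 99.1% lie on the plus strand. Plus-strand members had a median of 81 sites, against 68 in other plus-strand genes with a site. In minus-strand genes with a site the median was 2 in members and 1 in others. For 5 members (Fdft1, Sqle, Scd1, Scd2 and Fads1) the strand was read from the listed sites themselves. With the other 29, 14 of 14 plus-strand and 5 of 15 minus-strand members had sites. The strand of Fdps, which makes farnesyl diphosphate and had 0 sites, was not in the tables used here. A gene without reads cannot be listed, expression was not corrected for, and no test was made since the genes were chosen with results known. A count of 0 sets no upper limit, because every position in the table has 10 or more covering reads and a level of 0.2 or more. Single calls also had 10 or more reads used.

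**Figure D2:**
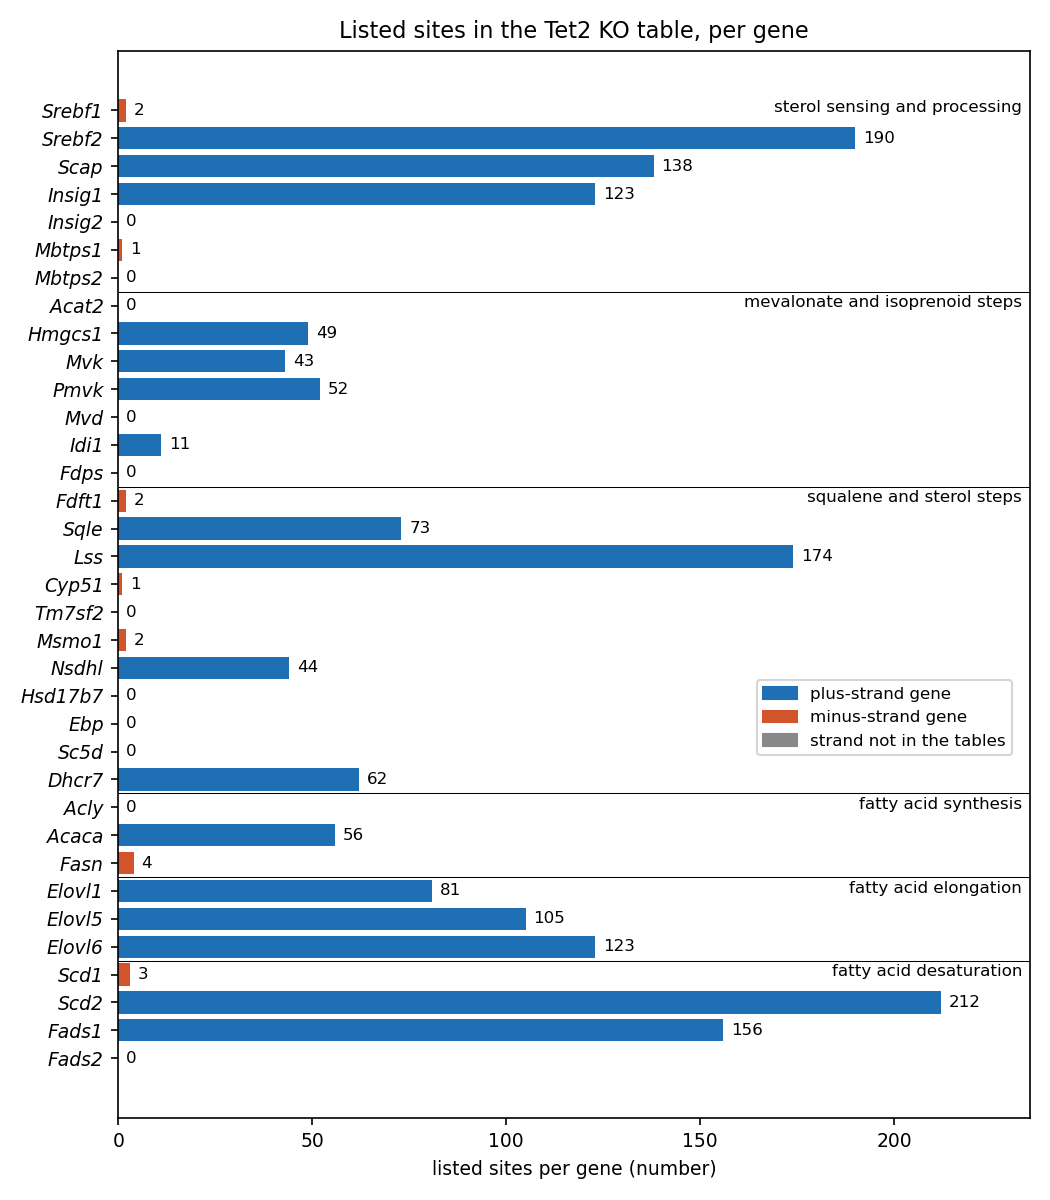
Number of listed sites for each of the 35 genes, in the order of the pathway, with bars coloured by gene strand. Plus-strand genes run from 11 to 212 sites, minus-strand genes from 0 to 4.

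Among the genes of sterol sensing, Srebf2, Scap and Insig1 carried nearly all sites. Srebf2, which encodes SREBP-2, had 190 sites on chromosome 15 between 82147269 and 82205379, the bounds of its span (mm10), with a median level of 0.549 and quartiles of 0.4 and 0.721. Scap, the escort protein gene, had 138 sites with a median level of 0.537. Insig1, which encodes an Insig retention protein and is itself a target of SREBPs, had 123 sites with a median of 0.519. A minus-strand RefSeq gene, Gm35223, spans the positions of all 123 Insig1 sites, while the authors label them Insig1 alone. Srebf1, which encodes both SREBP-1 forms, had 2 sites, with levels of 0.2 and 0.4 from 10 reads used each. Mbtps1, the site-1 protease gene, had 1 site at 0.2, and Mbtps2, the site-2 protease gene, and Insig2 had 0. Srebf1, Mbtps1, Mbtps2 and Insig2 all lie on the minus strand.

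The highly unconverted Srebf2 position lies at 82204427, 952 nt before the end of the gene. It was unconverted in 11 of 11 reads used (level 1, Wilson 95% interval 0.741 to 1) and was called in 1 KO replicate. It was covered by 84 reads, so 13.1% of the covering reads made the level. A neighbour at 82204020 had 9 of 10 reads unconverted with 94 covering. Both are sites with low read use, the class that lay on a C throughout the windows. Srebf2 had 27 sites with a level of at least 0.9, 14 of them at 1, and each of the 27 rested on 10 to 15 reads used. Of the 27, 8 had low read use and 19 had 70% or more used, a class with 28.9% of windowed positions on a C. Only 1 of the 27 was called in both replicates, at 82182078 with a mean level of 0.928 ± 0.102 (SD, n = 2). The site with the most reads used, at 82194064, had 60 of 90 reads unconverted (0.667, interval 0.564 to 0.755). With 112 covering reads, its read use was 80.4%. Windowed positions with 40 or more covering reads and 70% or more used were a C in 2 of 130 cases. Of the 190 Srebf2 sites, 53 had low read use, with a median level of 0.564 against 0.548 for the rest.

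**Figure D3:**
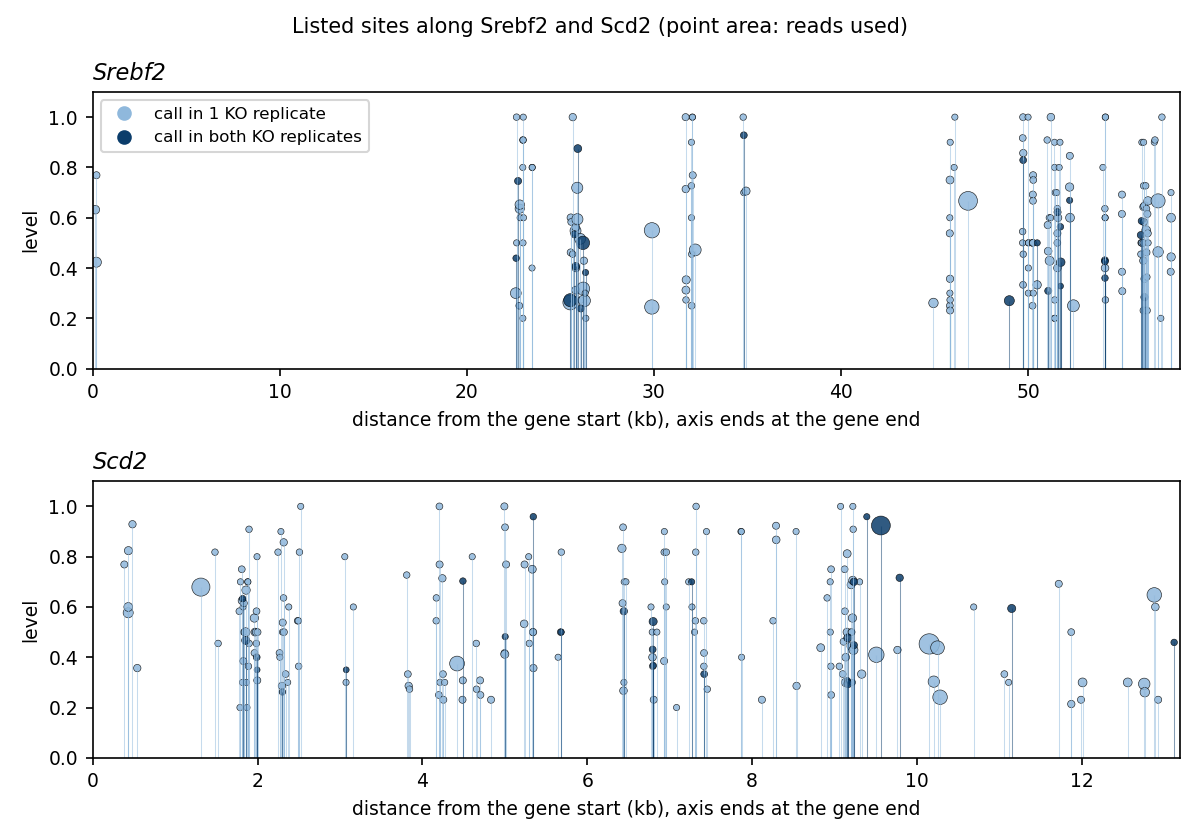
Listed sites along Srebf2 (upper panel) and Scd2 (lower panel), with the level on the vertical axis, the distance from the gene start in kb on the horizontal axis and point area proportional to reads used. The Srebf2 sites stand in separate groups, and the largest dark Scd2 point is the site with a mean level of 0.924 over both replicates.

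In the mevalonate and isoprenoid steps, Hmgcs1, Mvk, Pmvk and Idi1 had sites. Hmgcs1, the cytosolic HMG-CoA synthase gene, had 49 sites with a median level of 0.5. Its most read site, at 119707240 on chromosome 13, had 30 of 77 reads unconverted (0.390, interval 0.288 to 0.501). With 90 covering reads, the read use of this site was 85.6%. At 80 to 90% read use, 14.7% of windowed positions were a C. Mvk and Pmvk encode the kinases that phosphorylate mevalonate in turn. Mvk had 43 sites with a median of 0.583. Pmvk had 52 with a median of 0.623, the highest of the plus-strand members, and only 8 of its sites had low read use. Idi1, the isopentenyl diphosphate isomerase gene, had 11 sites, 0 of them with low read use, all with 10 to 20 covering reads. Its median level was 0.615. Median covering reads were 13.5 in Pmvk and 13 in Idi1, and single calls had 10 or more reads used. This floor leaves little room for low read use at such depth. Acat2, the cytosolic acetoacetyl-CoA thiolase gene, Mvd, the mevalonate diphosphate decarboxylase gene, and Fdps had 0 sites.

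Of the 11 genes from squalene to cholesterol, Lss, Sqle, Dhcr7 and Nsdhl had 353 of 358 sites. Lss, whose product closes squalene epoxide to lanosterol, had 174 sites and a median level of 0.571. Of these, 122 lie within the span of the minus-strand gene 4930483K19Rik, which has 0 labelled sites. Sqle, the squalene epoxidase gene, had 73 sites with a median level of 0.545, and for its 37 sites with low read use the median was 0.636. Its most read site, at 59317976 on chromosome 15, had 18 of 66 reads unconverted (0.273, interval 0.180 to 0.390). With 81 covering reads, the read use there was 81.5%. At 80 to 90% read use, 14.7% of windowed positions were a C. Dhcr7, the gene of a late reductase of the pathway, had 62 sites with a median level of 0.5. Nsdhl, a sterol dehydrogenase gene on the X chromosome, had 44 with a median of 0.475. On the minus strand, Fdft1, the squalene synthase gene, had 2 sites at 0.2 and 0.214, and Msmo1, the sterol methyl oxidase gene, 2 at 0.25 and 0.273. Cyp51, the lanosterol demethylase gene, had 1 site at 0.2, from 2 of 10 reads. Tm7sf2, Hsd17b7, Ebp and Sc5d, which also act between lanosterol and cholesterol, had 0.

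In fatty acid synthesis, elongation and desaturation, the longest lists were those of Scd2, Fads1 and Elovl6. Acaca, the acetyl-CoA carboxylase gene, had 56 sites with a median level of 0.46, the lowest among plus-strand members, over a span of 272017 nt. Fasn, the fatty acid synthase gene, had 4 sites with levels of 0.2, 0.2, 0.264 and 0.308, and Acly, the ATP citrate lyase gene, had 0. The elongase genes Elovl1, Elovl5 and Elovl6 had 81, 105 and 123 sites with medians of 0.55, 0.5 and 0.462. Fads1, the delta-5 desaturase gene, had 156 sites with a median of 0.5. Its site at 10193779 on chromosome 19 was called in both replicates at 0.943 ± 0.0354 (SD, n = 2). Read use at this site was about 87.5%, with a mean of 32 covering reads. At 80 to 90% read use, windowed positions were a C in 330 of 2246 cases. Fads2, the delta-6 desaturase gene, had 0.

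Scd2, a stearoyl-CoA desaturase gene, led all members with 212 sites on chromosome 19, and 302 of 5728 plus-strand genes with a site had more. Its highly unconverted position at 44303239 was called in both replicates, with a mean level of 0.924 ± 0.0269 (SD, n = 2), that is 0.905 in one library and 0.943 in the other. It was covered by a mean of 114 reads, with about 91 used and 84 unconverted. Read use was thus 79.8%, an approximate value for a call in both replicates and close to 80%. At 70 to 80% read use, windowed positions were a C in 564 of 599 cases, and at 80 to 90% in 330 of 2246. At 40 or more covering reads, those with 70% or more used were a C in 2 of 130 cases. These shares do not settle the base at this site. The base at 44303239 was not analysed here; it lies 8 nt past the end of the miR-5114 hairpin. The most deeply covered member site was also in Scd2, at 44303826, with 225 covering reads and 48 of 106 used reads unconverted (0.453, interval 0.361 to 0.548). Its use was below 70%. Scd2 had 21 sites at 0.9 or more, of which 11 had low read use. Among these 11, the most deeply covered was at 44301967, with 12 of 13 reads unconverted (interval 0.667 to 0.986) and 37 covering reads, and the site at 44303068 was called in both replicates at 0.959 ± 0.0580 (SD, n = 2).

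Levels in the plus-strand members spread over the whole listed range and were like those elsewhere in the table. The median over 1692 sites was 0.521 with quartiles of 0.368 and 0.7, against 0.529, 0.369 and 0.7 over 476969 sites in other plus-strand genes. Gene medians ran from 0.46 to 0.623, and all 17 lay between the 5th and 95th percentile (0.429 and 0.643) of the 5205 other plus-strand genes with 10 or more sites. A level of at least 0.9 was listed at 170 sites (10.0%), against 9.47% elsewhere. Of the 170, 71 had low read use and 99 did not. Sites with low read use had a median of 0.5 and the others 0.527. At 40 or more covering reads, the median was 0.357 over 83 sites with low read use and 0.52 over the 78 others. Across the 1692 sites level and covering reads were weakly and inversely related (Spearman's rho = -0.113); sites of a gene share reads. The 15 minus-strand sites had levels from 0.2 to 0.4 with a median of 0.231. In other minus-strand genes the median level was also 0.231.

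**Figure D4:**
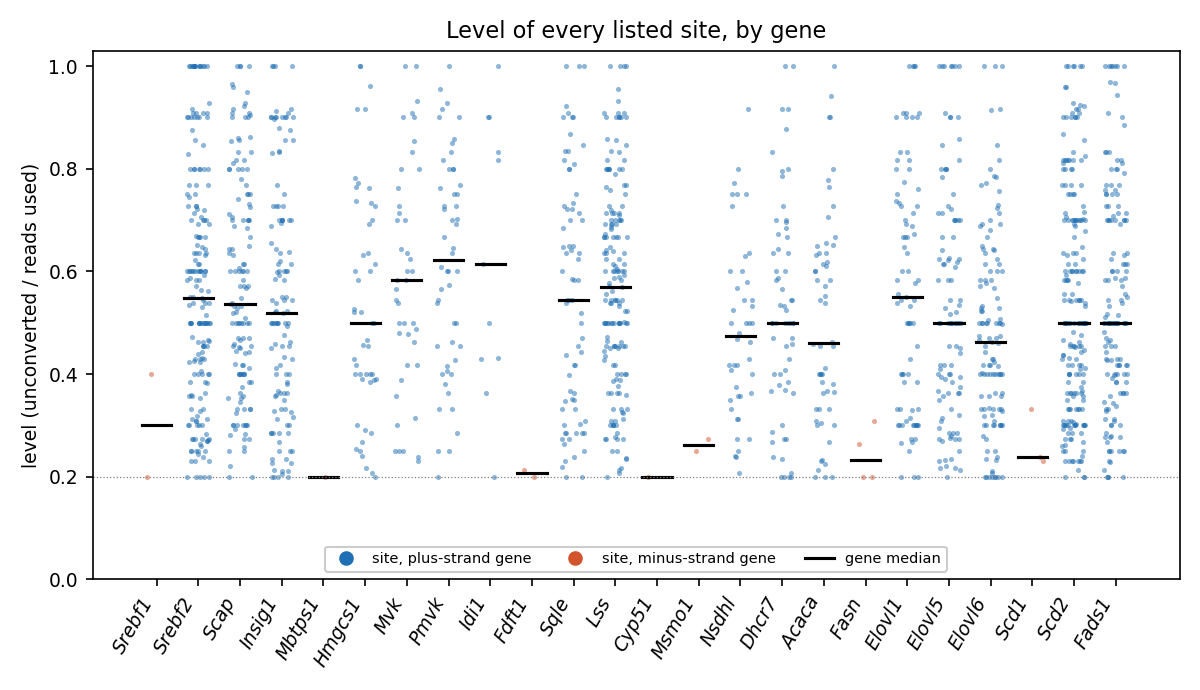
Level of each listed site by gene, with a bar at the gene median and a dotted line at the lowest listed level of 0.2. Plus-strand genes fill the range from 0.2 to 1, and the minus-strand sites lie at 0.4 or below.

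At 4 sites every read used was unconverted in both KO replicates. These sites lie in Dhcr7 (143847335 on chromosome 7, mean of 34 covering reads), Fads1 (10192921 on chromosome 19, 39 reads), Lss (76541871 on chromosome 10, 23 reads) and Sqle (59315157 on chromosome 15, 15 reads), with means of 11 to 12 reads used. Read use was low at the first 3 and above 70% at the Sqle site.

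Both KO replicates made the call at 284 of the 1707 member sites (16.6%, exact interval 14.9 to 18.5), and 1 of them at the rest. In other plus-strand genes it was both at 14.3% of sites. On the plus strand, the share was 24.6% for sites with low read use and 12.1% for the others, and elsewhere 23.0% and 10.9%. Member sites with low read use also had more covering reads (median 25 against 15), and read use was not separated from depth. Among plus-strand genes it ran from 8.93% in Acaca to 24.4% in Elovl6, where 30 of 123 sites were called in both. On the minus strand 1 of 15 sites, in Fasn, was called in both. At the shared sites the median distance between the replicate levels was 0.098. The widest was in Scap at 110353000 on chromosome 9, where the libraries had 0.3 and 1. The table does not say which replicate made a single call.

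Position in the gene differed between members. The last decile of the gene span, at its 3' end, held 31.7% of the plus-strand member sites (interval 29.5 to 34.0), against 28.8% in other plus-strand genes. The interval takes sites as independent, although sites of a gene share reads, so it does not show a difference between the sets. All 123 Elovl6 sites lay there, among 536 from the plus-strand members, as did 79 of 105 in Elovl5 and 30 of 44 in Nsdhl. In Idi1 it was 0 of 11, in Elovl1 1 of 81, in Insig1 5 of 123 and in Scd2 11 of 212. Exons, introns and untranslated regions were not analysed here, and spans differ in how much of them is exon. Sites stood close together: 67.5% of plus-strand member sites had another listed site within 10 nt, against 70.5% elsewhere. The longest chain of sites no more than 10 nt apart lay in Lss, with 14 sites in 40 nt from 76540334 to 76540373 on chromosome 10 and levels from 0.278 to 0.909. Chains of 12 sites followed in Elovl6 (36 nt) and Scd2 (39 nt). Counting only sites with low read use, 52.1% had such a neighbour.

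**Figure D5:**
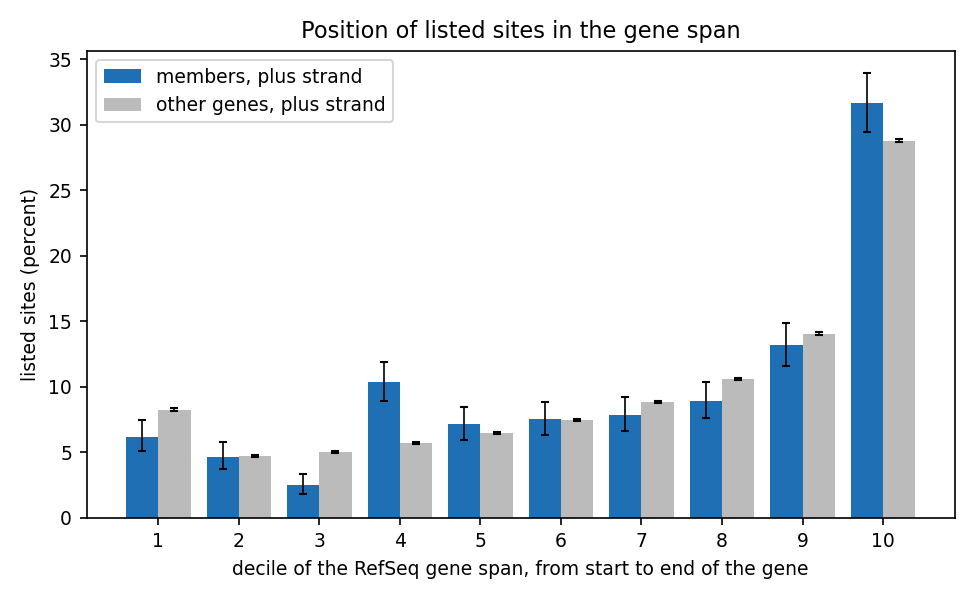
Percent of listed sites in each decile of the gene span for the 17 plus-strand members and for other plus-strand genes, with exact 95% intervals that cover counting error only. The last decile holds the most sites in both sets.

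Of related genes that lie on opposite strands, the plus-strand gene had more sites in each of the 4 pairs described here. Scd2 had 212 sites at a median of 0.5 and its minus-strand paralog Scd1, 87585 nt away, had 3 at 0.231, 0.238 and 0.333. The Scd1 sites were covered by 17, 75 and 82 reads. Every listed position had 10 or more covering reads, and every single call had 10 or more reads used. Near-identical stretches of the 2 genes could share reads, and the authors' handling of such reads was not given in the sources used here. Srebf2 had 190 sites and Srebf1 2, Insig1 123 and Insig2 0, and Fads1 156 and Fads2 0. Insig2 and Fads2 thus have no listed level to set beside their partners. In each pair the gene with more sites is on the plus strand, so gene and strand cannot be told apart.

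Other lipid genes came from lists drawn up with earlier results known, and their counts stand beside 34.2% of 21900 protein-coding genes with a site (plus-strand genes 51.3%, minus-strand genes 18.5%). No test was made of the lists. Of 24 genes of sterol storage, transport and related steps, 19 had sites, 12 of 12 on the plus strand and 7 of 11 on the minus strand. Osbpl8, an oxysterol-binding protein family gene, had 421 and the lipoprotein receptor gene Lrp8 294. Of 14 genes of sterol efflux and LXR signalling, 8 had sites, led by the transporter gene Abcg1 with 139 and by Mylip, a ubiquitin ligase gene induced by LXR, with 128. By strand these were 5 of 6 plus-strand and 3 of 7 minus-strand genes. Of 27 further fatty acid genes, 12 had sites, 10 of 14 on the plus strand and 2 of 11 on the minus strand. Acsl3, an acyl-CoA ligase gene, had 351 and the acetyl-CoA synthetase gene Acss2 134. Of 15 glycerolipid genes, 9 had sites, with 165 in Lpin2, a phosphatidate phosphatase gene, and 101 in Ptdss2, a phosphatidylserine synthase gene. By strand these were 6 of 6 plus-strand and 3 of 6 minus-strand genes. No minus-strand gene of the 4 lists had more than 4 sites. Medians of level over the 4 lists ran from 0.522 to 0.545. Strand came in part from the sites themselves.

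The labelled cell type was checked against marker genes. Of 12 myeloid progenitor markers, 9 had sites, among them Mpo with 217, Cd34 with 150 and Kit with 106. All 9 lie on the plus strand, where 51.3% of genes had sites, while Ctsg and Ptprc on the minus strand (18.5% of genes) and Cebpe, of unknown strand, had 0. Markers of T cells, B cells, erythroid cells and adipocytes had 0 sites in 5 genes each, and hepatocyte markers had sites in 1 of 5, the 13 of Ttr. Known plus-strand genes number 2 for T cells, 1 for B cells, 2 for erythroid cells, 3 for adipocytes and 3 for hepatocytes. With 9 of 12 myeloid markers on the plus strand, cell type and strand are partly confounded in these counts. Of 8 pancreatic islet markers 7 had sites, 601 in all, from 8 in Chga to 228 in Gcg, and Pdx1 had 0. Unlike the lipid genes, the minus-strand islet genes carried many, such as 139 in Ins2. Lipid synthesis genes are used by most cell types, and the part of islet RNA in their sites was not tested.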

How the data were processed

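Bisulfite-treated poly(A) RNA of 2 WT and 2 Tet2 KO samples was sequenced, per the labels; library totals were not used here. The deposited table lists 1 position per line on mm10, per the submitters' processing notes. Neither aligner nor site caller was given in the sources used here. The authors' level is a fraction of the reads used at a site. Its deposited SD was read as a population SD, since its largest value, 0.4, is the most that levels from 0.2 to 1 allow, and printed SDs are sample SDs. Numbers of covering and unconverted reads were deposited as whole reads of 1 library for single calls and, for calls in both, as a rounded mean, handled as a score. The authors' combined p-values were used only as an alternative threshold. There were 0 columns of another series.

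Reads used were the unconverted reads divided by the level, which gave whole reads at 100% of single-call sites (tolerance 0.0006); for calls in both replicates they are approximate. Wilson intervals (95%) are given for single-call levels and exact intervals for shares. They cover counting error only and treat reads as independent molecules. The intervals for shares also treat sites as independent, although sites of a gene share reads, and so are too narrow for comparing sets of genes. Strand, names and spans came from RefSeq tables (GRCm38.p6), which held 35 of 35 members; 29 had a promoter window (250 bases before to 50 after a start). Windows (32851) and 1005 miRNA hairpins gave the bases under listed positions. No test was made, and functions were checked on simulated data. Python 3.11.15 with pandas 2.3.3 and scipy 1.17.1 was used.

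Members, lists and the boundary of 70% read use were chosen with results of these data known. Named were all members, each with its site count and median level, and sites by most reads used, by highest level at 20 or more covering reads, or by a level of at least 0.9 with 20 or more reads used; windowed sites, low-use sites, chains and the widest replicate gap were named after their values were seen. Not every site that this rule picks is printed. Alternatives were covering reads (20, 30 and 50), reads used (20), calls in both replicates, p-values below 1e-06, isolated sites, single labels and low read use.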

Additional observations from a re-analysis of the deposited data

How the results depend on the processing

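No paired analysis was possible because the table holds no WT values and no columns per library. Levels per library could be recovered only at calls in both replicates, without knowing which library gave which level. The planned comparison of KO and WT with a replicate block and the leaving out of each replicate were therefore not run. From 24 members with a site, 16 to 24 kept one in every alternative. The 1707 sites fell to 796, 346 and 87 at 20, 30 and 50 covering reads, to 259 with 20 or more reads used, to 284 called in both replicates, to 85 with both p-values below 1e-06, to 563 with no listed neighbour within 10 nt and to 635 with under 70% read use. Fewer sites qualify by construction. The median level of 0.516 moved by more than the median SD of 0.0693 between replicates, taken over sites called in both, at 50 covering reads (0.438) and at the stricter p-values (0.357). The share called in both replicates, 16.6%, was 21.2% and 21.4% at 20 and 30 covering reads, 44.7% at the stricter p-values, 13.9% for isolated sites, 24.3% with under 70% read use and by definition 100% for sites called in both. The share in the last decile of the span, 31.5%, was 34.4% and 37.9% at 30 and 50 covering reads, 35.1% with 20 or more reads used, 35.2% for calls in both, 35.3% at the stricter p-values and 35.9% for isolated sites. Levels from 10 reads used have wide intervals.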

Other observations

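Within the members, read use differed by gene. Sites with under 70% of the covering reads used made up 37 of 73 in Sqle, 76 of 156 in Fads1, 30 of 62 in Dhcr7 and 22 of 44 in Nsdhl. They were 10 of 56 in Acaca, 8 of 52 in Pmvk and 0 of 11 in Idi1. Median covering reads of these genes, in the same order, were 23, 20, 20.5, 26.5, 18, 13.5 and 13. The floor of 10 reads used at single calls limits low read use where covering reads are few. Among sites with at least 40 covering reads, Elovl1 had 8 with low read use and 0 others, and Hmgcs1, which had 3 with low use, had 8 others. In the windows the median read use was 63.2% at positions on a C and 85.2% at positions on an A or G. Calls in both replicates were listed for 18.8% of windowed plus-strand positions on a C and for 9.38% of those on an A or G. A level of at least 0.9 fell on a C in 821 of 1305 windowed positions (62.9%).

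With low read use and at least 30 covering reads, 18 member sites had a level of 0.9 or more. They lie in Srebf2 (4 sites), Elovl5 (3), Fads1, Scd2 and Insig1 (2 each), and Dhcr7, Elovl1, Sqle, Elovl6 and Mvk (1 each). The Elovl6 site at 129633202 on chromosome 3, covered by 51 reads, was called in both replicates at 0.915 ± 0.0212 (SD, n = 2). The Mvk site at 114460509 on chromosome 5 lies 82 nt before the end of the gene, with 10 of 11 reads unconverted.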
